A study of Mus musculus with 47 samples.

Results

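MHC class II antigen presentation is described here through 7 genes: H2-Aa, H2-Ab1 and H2-Eb1, which encode chains of the surface molecules, Cd74 (the invariant chain), Ciita (the class II transactivator), and H2-DMa and H2-DMb1 (the peptide editor H2-M). A gene was measured when at least 1 probe set of the array carried its symbol and no other. This gave 14 probe sets, of 45101 on the array, for 6 of the 7 genes. The probe sets that list H2-DMb1 also list its neighbour H2-DMb2, so H2-DMb1 has no value here. Of the 14 probe sets, 13 passed the filter on low values, and each of the 6 genes is represented by its brightest one among 13509 genes.

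The study profiled total RNA of small intestine on an Affymetrix mouse 3' expression array, with 47 arrays from 2 compartments, the proliferating crypts and the differentiated villi. All mice were C57BL/6. In the dietary arm, wild-type mice ate Ain76A (a purified control diet), NWD1 (a purified diet with a Western-style nutrient profile) or NWD2 (NWD1 with more calcium and vitamin D3) from weaning for 1 year. In the genetic arm, mice of 3 months on Ain76A were wild type, Apc1638N/+ (heterozygous for a truncating allele of the tumour suppressor Apc) or labelled p21-/- (Cdkn1a null). Each of the 12 groups held 4 arrays, except NWD2 villi with 3. All mice of the genetic arm shared the Ain76A diet, and all mice of the dietary arm were wild type. The labels do not state whether the arrays of a group came from separate animals or from pools, so the p-values measure only the spread between these samples. Levels are normalized log2 values.

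Class II molecules display peptides, cut from proteins in endosomes, to CD4+ T cells. The invariant chain escorts newly made α and β chains and blocks their groove, and H2-M then exchanges its last fragment for peptide. Ciita, itself induced by interferon gamma, switches the whole set on by docking to factors bound at paired promoter elements called the X and Y boxes. B cells, dendritic cells and macrophages carry class II constitutively. In the small intestine, absorptive enterocytes and stem cells can also carry it.

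The promoters of the members are shown first, to describe which of them hold X and Y box letters. RefSeq promoter sequences (GRCm38.p6) were searched for 4 of the 7 members, in 5 windows of 250 bases ending at the transcription start. H2-Ab1, Cd74 and Ciita were not part of this search. Of the searched windows, the 3 that hold X or Y box letters follow. Matches to the X box forms and the Y box are in capitals, and CCAAT outside them is left in lower case.
H2-Eb1: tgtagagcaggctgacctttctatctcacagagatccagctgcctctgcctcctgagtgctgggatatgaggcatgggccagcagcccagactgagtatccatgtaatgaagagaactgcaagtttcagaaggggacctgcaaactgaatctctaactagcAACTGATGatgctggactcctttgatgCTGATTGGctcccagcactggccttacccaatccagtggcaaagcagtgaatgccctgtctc
H2-Aa: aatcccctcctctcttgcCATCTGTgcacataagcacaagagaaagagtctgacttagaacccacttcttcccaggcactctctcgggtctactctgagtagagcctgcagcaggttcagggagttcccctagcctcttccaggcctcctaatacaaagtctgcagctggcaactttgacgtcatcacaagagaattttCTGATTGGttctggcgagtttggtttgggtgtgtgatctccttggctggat
H2-DMb1: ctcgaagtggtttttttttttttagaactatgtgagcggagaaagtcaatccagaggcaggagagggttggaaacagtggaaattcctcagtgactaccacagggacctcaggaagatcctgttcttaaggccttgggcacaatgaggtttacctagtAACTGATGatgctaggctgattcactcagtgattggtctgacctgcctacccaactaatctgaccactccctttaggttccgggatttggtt
The windows lie at chr17:34305617-34305866 on the plus strand for H2-Eb1, chr17:34287824-34288073 on the minus strand for H2-Aa, and chr17:34152941-34153190 on the plus strand for H2-DMb1. Each is printed 5′ to 3′ along its gene. The motifs searched on both strands were the X box core AACNGATG, its looser form ACNGATG, the Y box CTGATTGG and CCAAT. The looser form lies inside the core, and the end of the Y box, ATTGG, is CCAAT on the other strand. H2-Eb1 held the X core AACTGATG at bases -89 to -82 before the start and the Y box at -62 to -55, with CCAAT at -35 to -31. H2-Aa held the Y box at -51 to -44 and only the looser X form, at -232 to -226 on the other strand. H2-DMb1 held the same X core letters at -92 to -85 and CCAAT on the other strand at -61 to -57, without the full Y box letters. The first H2-DMa window held none of the motifs, and the second held CCAAT alone. Among 32851 promoter windows of this length, 1.98% held the X core, 8.31% the looser form, 3.83% the Y box and 33.8% CCAAT. Only 26 windows, or 0.0791%, held both the X core and the Y box, and they include H2-Eb1 and its neighbour H2-Eb2. A match is a description of letters, not evidence of binding.

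In villi, the class II genes H2-Aa and Cd74 were lower on NWD2 than on either other diet. Of the 8870 genes tested for NWD2 against NWD1, limma called 2 (0.0225%; 0.0225% lower). Both were members: Cd74 fell by 3.73 and H2-Aa fell by 3.28 on the log2 scale. The 5 members tested had a median difference of -2.56, beside 0.01 for all genes, and all 5 differences were below 0. Groups did not overlap for 4 of the 5, beside 6.44% of all genes tested. The members H2-Aa, Cd74 and H2-DMa had the 3 smallest p-values of all genes, and H2-Eb1 ranked 7. The members were chosen with earlier results of these data known, so their place among all genes is a description, not an independent test.

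The invariant chain gene Cd74 read 14.84, 14.66, 14.61 and 14.78 on the NWD1 villus arrays and 14.90, 12.84, 14.62 and 13.66 on Ain76A. On NWD2 it read 9.48, 12.46 and 11.03. All 3 NWD2 arrays lay below every array of the other diets, and the NWD1 arrays were nearly level while the other groups spread widely. Against NWD1 the difference was -3.73 ± 0.74 (SE; 95% confidence interval -5.23 to -2.23; limma adjusted p = 0.0425), a 13.3-fold lower level. Against Ain76A it was -3.02 ± 0.74 (adjusted p = 0.0488), or 8.09-fold lower.

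The α chain gene H2-Aa read 14.44, 14.13, 14.55 and 14.35 on NWD1 villus arrays and 14.59, 12.75, 14.40 and 13.20 on Ain76A. The NWD2 arrays read 9.83, 12.25 and 11.19. The order was that of Cd74: NWD2 array 1 was lowest, array 2 highest, and no NWD2 array reached the other diets. The difference was -3.28 ± 0.65 against NWD1 (95% confidence interval -4.58 to -1.98; limma adjusted p = 0.0425), or 9.71-fold lower, and -2.65 ± 0.65 against Ain76A (adjusted p = 0.0455), or 6.26-fold lower. Samples are bulk tissue, so fewer cells that express class II and less RNA per cell cannot be told apart.

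The gene has 3 further probe sets, and on each of them NWD2 was also lower than NWD1. Their differences were -4.17 ± 0.80 (1438858_x_at), -3.94 ± 0.65 (1452431_s_at) and -3.02 ± 0.60 (1443783_x_at). Tested over all probe sets, the first pair was called (limma adjusted p = 0.0359 and 0.0064), and the last was not (0.0566). The suffix x marks probe sets whose probes can bind related transcripts, which applies to the probe set that represents H2-Aa too. On 1452431_s_at the NWD2 arrays read 7.16, 10.51 and 8.88 against 12.91, 12.48, 12.89 and 12.86 on NWD1. On Ain76A they read 13.17, 10.45, 12.62 and 10.95, so NWD2 array 2 overlapped there.

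The β chain gene H2-Eb1 read 12.93, 12.73, 12.85 and 12.60 on NWD1, 13.27, 11.61, 12.83 and 11.55 on Ain76A, and 8.64, 11.48 and 10.55 on NWD2. The NWD2 arrays were again below all others, array 2 by a narrow margin. The differences of -2.56 ± 0.62 against NWD1 (limma adjusted p = 0.211) and -2.09 ± 0.62 against Ain76A (adjusted p = 0.126) did not pass.

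The other β chain gene, H2-Ab1, read 13.03, 12.61, 13.06 and 12.92 on NWD1 and 13.24, 11.49, 13.02 and 11.59 on Ain76A. On NWD2 it was blank on array 1 and read 11.10 and 10.59 on the other arrays, below all arrays of the other diets. With values on only 2 NWD2 arrays it was not tested. With blanks set to a low floor, the differences were -3.85 against NWD1 (limma adjusted p = 0.0598) and -3.28 against Ain76A (adjusted p = 0.0449). With NWD2 array 1 left out instead, they were smaller, at -2.06 against NWD1 (limma adjusted p = 0.647) and -1.49 against Ain76A (adjusted p = 0.393). Its other probe sets, 1451721_a_at and 1425477_x_at, were blank on the same array, and on 1451721_a_at the remaining NWD2 values, 10.81 and 9.78, were below the lowest NWD1 value of 12.50.

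H2-DMa, the α chain of the peptide editor, read 10.78, 10.65, 10.53 and 10.23 on NWD1, 10.74, 9.60, 11.09 and 9.53 on Ain76A, and 7.54, 8.81 and 8.79 on NWD2. The NWD2 arrays lay below both other diets. The differences were -2.16 ± 0.48 against NWD1 (limma adjusted p = 0.176) and -1.85 ± 0.48 against Ain76A (adjusted p = 0.0688), neither passing. Its second probe set, 1459872_x_at, disagreed: NWD2 minus NWD1 was -0.10 ± 0.37 there, with NWD2 values of 7.78, 8.69 and 8.84 around the NWD1 span of 8.25 to 8.80. In crypts it was measured on all 4 NWD2 arrays and on 1 Ain76A array, so the H2-DMa result rests on a single probe set.

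Ciita read 7.33, 7.43, 7.95 and 7.77 on NWD1, 7.93, 7.48, 7.14 and 6.79 on Ain76A, and 6.47, 7.65 and 7.0 on NWD2. The groups overlapped, and NWD2 array 1 was again the lowest. The differences were -0.58 ± 0.31 against NWD1 (95% confidence interval -1.21 to 0.05) and -0.30 ± 0.31 against Ain76A, and neither passed (limma adjusted p = 1 and 0.771). The transactivator was measured on only 37 of the 47 arrays. Its second probe set, 1421211_a_at, was measured on all 4 NWD1 villus arrays, on 1 Ain76A villus array and on none of the NWD2 villus arrays.

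**Figure D1:**
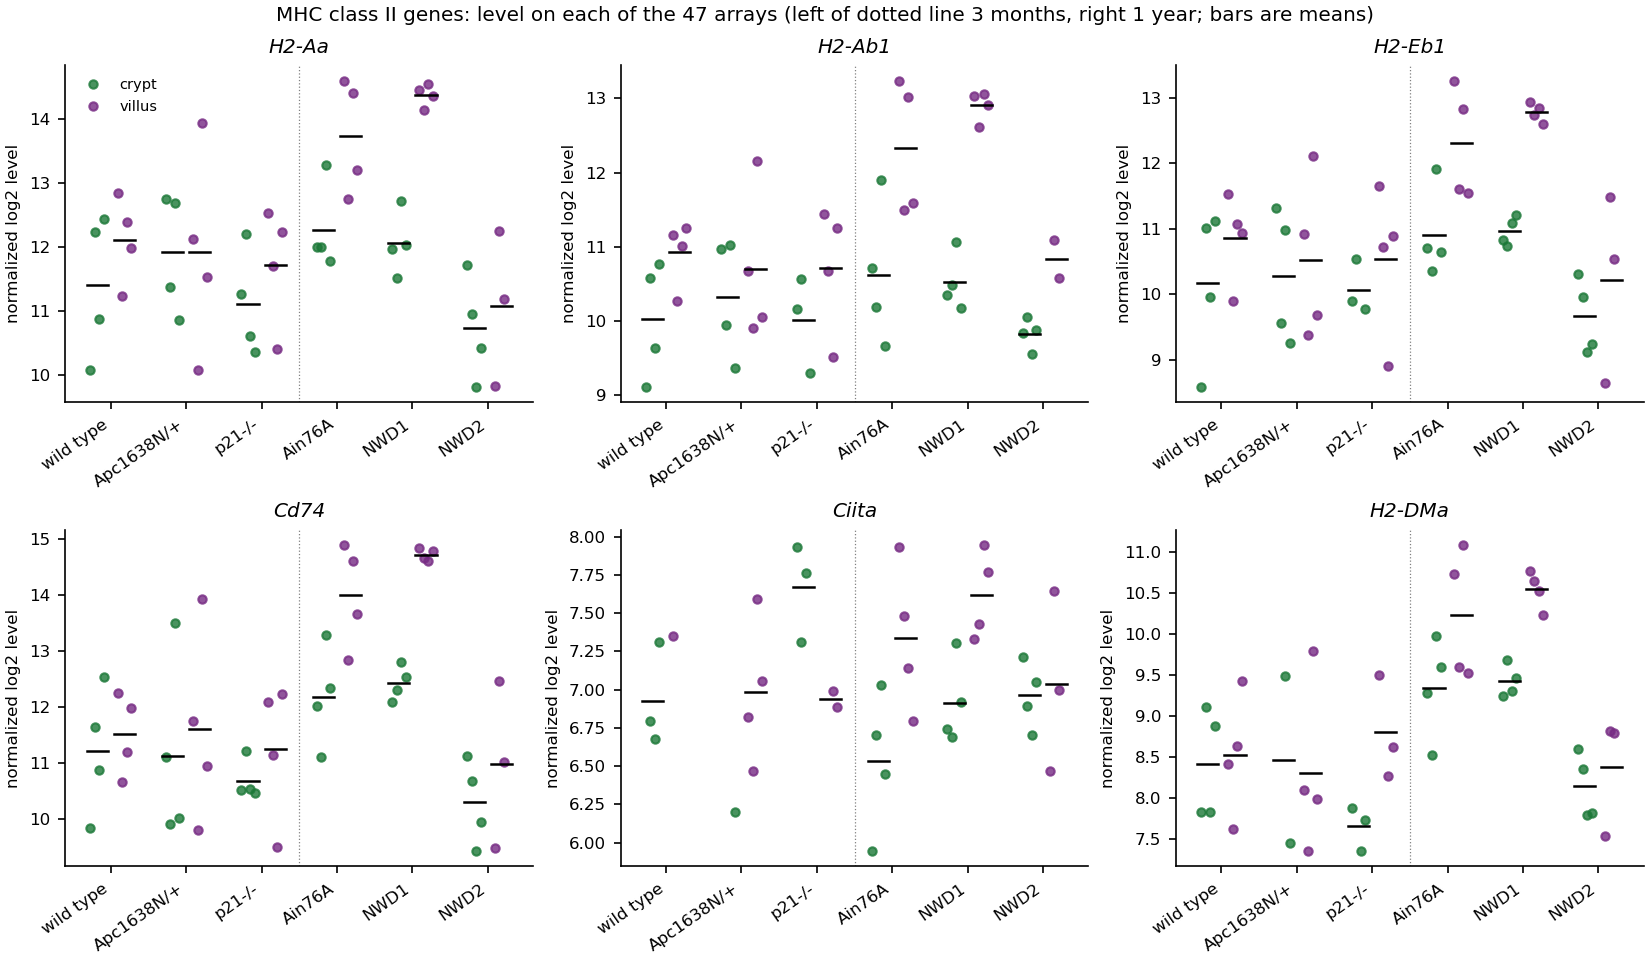
Normalized log2 level of each measured member (vertical axis) on every array, by condition, with crypts in green, villi in purple and black bars for group means. The NWD1 villus arrays of Cd74 sit between 14.61 and 14.84, and the 3 NWD2 villus arrays, at 9.48 to 12.46, lie below every Ain76A and NWD1 villus array.

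Against Ain76A in villi, limma called 40 of 8742 genes (0.458%), 9 higher and 31 lower (0.355%), and the lower ones include H2-Aa and Cd74 among 5 members tested. The members' median was -2.09, beside 0.01 for all genes, and 4 of the 5 did not overlap between groups, beside 21.9% of all genes tested. The comparisons with NWD1 and with Ain76A share the NWD2 arrays, so they are not independent of each other.

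These villus calls sat close to the threshold. The NWD2 against NWD1 calls of both genes were lost when any single NWD1 villus array, or NWD2 array 1 or 3, was left out, with an adjusted p of up to 0.647 without NWD2 array 1. Without that array the differences were still -2.98 for Cd74 and -2.65 for H2-Aa, and without NWD2 array 2 they were -4.47 and -3.86 (adjusted p = 0.0129). NWD2 villus array 1 also stood apart in its markers: its proliferation sum, on the linear scale with blanks as 0, was 8635, against 2249 and 2698 on the other NWD2 arrays and at most 6794 on any other villus array. Its enterocyte sum of 504519 was the lowest of the villus arrays of the 3 diets. Their part in the result was not tested. The calls against Ain76A were lost without Ain76A villus array 1, 3 or 4 or NWD2 array 1 or 3 (adjusted p up to 0.348 for Cd74 and 0.33 for H2-Aa), and H2-DMa was gained without Ain76A array 2 (adjusted p = 0.0444). With only the compared groups in the fit, the adjusted p against NWD1 was 0.135 for Cd74 and 0.126 for H2-Aa.

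In crypts the members were also lower on NWD2 than on NWD1, by a median of -1.29 beside -0.02 for all genes, but none of the 6 tested was called. Limma called 1 of 9585 genes in that comparison (0.0104%), which was no member. At an unadjusted p under 0.05 there were 4 members and 741 genes. Between the diets 4 of the 6 members did not overlap, as was the case for 7.53% of all genes tested. Marker sums moved with this comparison. Macrophage sums were 6727, 3461, 3134 and 3565 on the NWD2 crypt arrays against 5563 to 7415 on NWD1. They were high on array 1, which was also the highest NWD2 crypt array for H2-Aa, H2-Eb1, Cd74 and H2-DMa. That array also had the highest NWD2 crypt sums for T cells (18462, others 5981 to 7637) and plasma cells (6629, others 2999 to 3433). The same held for its dendritic cell, innate lymphoid, stromal and proliferation sums, but not for its B cell sum. Its enterocyte sum, 368062, was the lowest (others 453959 to 546093). Proliferation sums had medians of 15074 on NWD2 and 24546 on NWD1, and enterocyte sums of 475695 and 373799. Their part in the result was not tested.

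In crypts Cd74 read 12.09, 12.31, 12.81 and 12.54 on NWD1, 12.02, 11.11, 13.30 and 12.34 on Ain76A, and 11.14, 10.68, 9.43 and 9.95 on NWD2. NWD2 was below all NWD1 arrays, and its array 1 just exceeded the lowest Ain76A array. The difference was -2.14 ± 0.69 against NWD1 (95% confidence interval -3.53 to -0.75; limma adjusted p = 0.36) and -1.89 ± 0.69 against Ain76A (adjusted p = 0.0774).

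H2-Aa read 11.97, 11.52, 12.72 and 12.03 on NWD1, 12, 12, 13.28 and 11.78 on Ain76A, and 11.72, 10.95, 9.82 and 10.43 on NWD2. Array 1 of NWD2 overlapped with NWD1, and no NWD2 array reached Ain76A. The differences were -1.33 ± 0.60 and -1.53 ± 0.60 (limma adjusted p = 0.591 and 0.1).

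H2-Eb1 read 10.32, 9.96, 9.12 and 9.25 on NWD2, against 10.74 to 11.21 on NWD1 and 10.36 to 11.91 on Ain76A. H2-DMa read 8.60, 8.36, 7.79 and 7.81 on NWD2, against 9.25 to 9.68 on NWD1 and 8.52 to 9.97 on Ain76A. Both were below all NWD1 arrays, by -1.30 ± 0.58 and -1.28 ± 0.44 (limma adjusted p = 0.591 and 0.415).

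H2-Ab1 read 9.84, 10.06, 9.55 and 9.88 on NWD2 and 10.17 to 11.07 on NWD1, a difference of -0.69 ± 0.47. Ciita read 7.21, 6.90, 6.70 and 7.05 on NWD2 and 6.69 to 7.30 on NWD1, a difference of 0.05 ± 0.29. Thus H2-Ab1 did not overlap and Ciita did, and neither passed (limma adjusted p = 0.746 and 0.988).

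Against Ain76A in crypts, limma called 786 of 9413 genes (8.35%), 482 higher and 304 lower, and none of the 6 members, of which 4 had an unadjusted p under 0.05. The members' median was -1.22 beside -0.09 for all genes. Without NWD2 crypt array 1, Cd74 and H2-Aa were called (adjusted p = 0.044 and 0.0442). Enterocyte markers moved with this comparison: 8 of the 9 tested rose, among them Lct by 1.95 ± 0.43 (limma adjusted p = 0.00311) and Alpi by 1.47 ± 0.31 (0.0022), and the proliferation genes Mcm5 and Mcm7 fell. The part of these shifts in the members' values was not tested.

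Whether the NWD2 difference was larger in villi than in crypts was tested directly. For NWD2 against NWD1, the villus difference minus the crypt difference was -1.95 ± 0.88 for H2-Aa (95% confidence interval -3.73 to -0.18), -1.60 ± 1.01 for Cd74, -1.25 ± 0.85 for H2-Eb1, -0.88 ± 0.65 for H2-DMa and -0.63 ± 0.42 for Ciita. None passed (limma adjusted p = 0.997 for each), and limma called 0 of 8540 genes (0.00%) in this test, with 214 genes and 1 member at an unadjusted p under 0.05. For NWD2 against Ain76A, limma called 50 of 8340 genes (0.600%) and no member of 5, and no member had an unadjusted p under 0.05. A larger effect in villi was therefore not shown for any member.

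No member was called between NWD1 and Ain76A. In crypts limma called 0 of 9563 genes (0.00%), with 323 genes and 0 members at an unadjusted p under 0.05, and the members' median was 0.07. In villi it called 5 of 9110 (0.0549%) and 0 of 6 members, none with an unadjusted p under 0.05, and the median was 0.52 with all 6 differences above 0. The Cd74 interval in villi ran from -0.67 to 2.11, so it holds a difference in either direction. The Ain76A villus arrays split: arrays 1 and 3 were as high as NWD1 for H2-Aa, H2-Ab1, H2-Eb1, Cd74 and H2-DMa, and arrays 2 and 4 were lower.

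**Figure D2:**
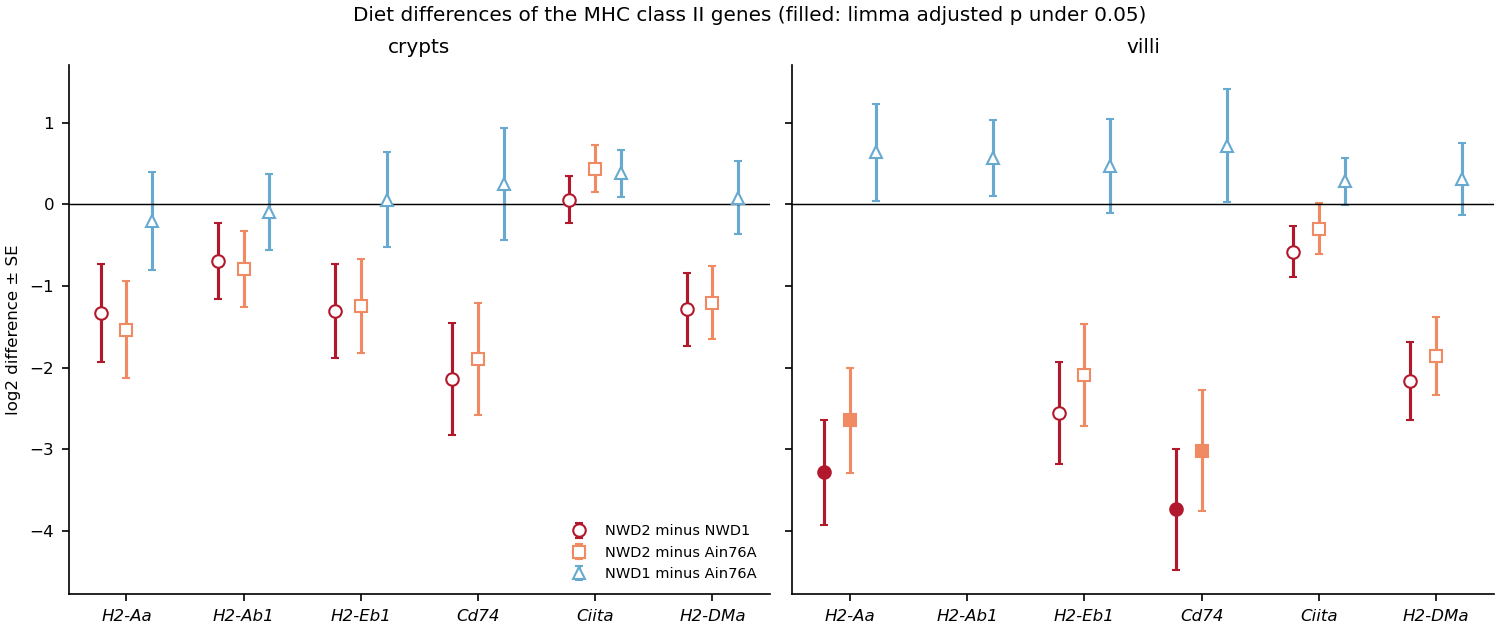
Log2 difference ± SE of each member (horizontal axis) for the 3 diet comparisons, in crypts and in villi, with filled symbols for limma adjusted p under 0.05. The 4 filled symbols are H2-Aa and Cd74 in villi, from -3.73 to -2.65, and H2-Ab1 has no NWD2 symbol in villi because it was not tested there.

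With 0.0225% of all genes called between NWD2 and NWD1 in villi, counts of calls say little about other lists of the pathway, and their medians are the description. For NWD2 against NWD1 in villi, limma called none of 9 tested genes of peptide loading and proteolysis (median 0.02), none of 12 that transcribe class II genes (-0.12), none of 8 in interferon gamma signalling (-0.00) and none of 12 in the MHC class I pathway (0.02). Examples, named after their values were seen, are Ctss, the protease that trims the invariant chain (-0.01 ± 0.23), Rfx5, a subunit of the factor that binds the X box (-0.22 ± 0.24), and the class I chains H2-K1 (-0.07 ± 0.24) and B2m (0.08 ± 0.21). Interferon gamma itself, Ifng, was measured on 1 of 4 Ain76A, 1 of 4 NWD1 and 0 of 3 NWD2 villus arrays.

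Against Ain76A in villi, 3 of 8 tested genes induced by interferon gamma fell (list median -1.25). They were Gbp3, a guanylate-binding protein, by 2.0 ± 0.36 (limma adjusted p = 0.00799), Gbp7 by 1.40 ± 0.33 (0.0389) and Ido1, which degrades tryptophan, by 2.05 ± 0.47 (0.0389). In the NWD1 comparison none of 8 was called, and Gbp3, Gbp7 and Ido1 differed by -0.36, -0.16 and -0.74. The class I list had 0 of 12 called against Ain76A (median -0.20).

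**Figure D3:**
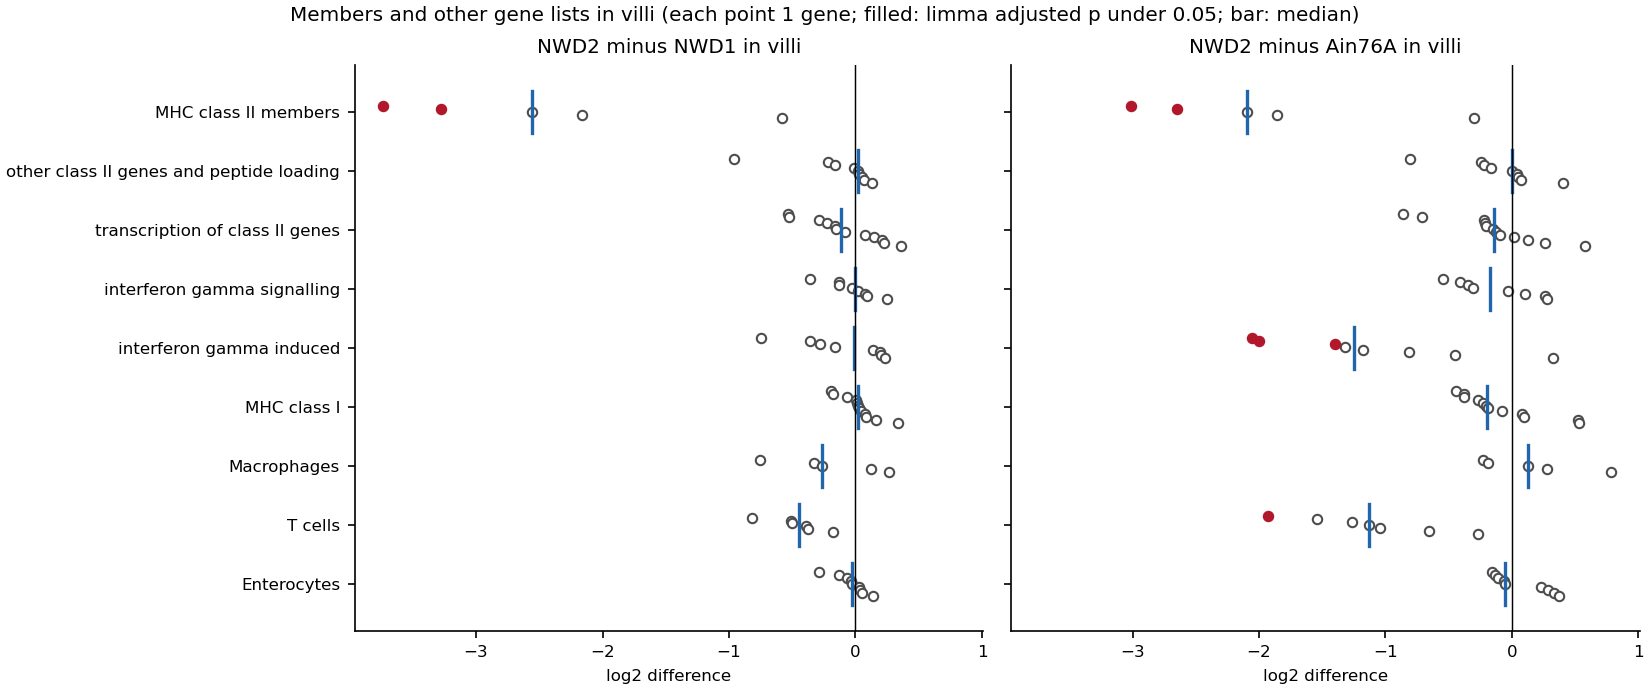
Log2 difference in villi (horizontal axis) of each tested gene, by list (vertical axis), for NWD2 against NWD1 and against Ain76A, with filled points for limma adjusted p under 0.05 and a blue bar at each list's median. The members' medians, -2.56 and -2.09, lie left of those of the other lists, though the member Ciita lies at -0.58 and -0.30. The medians of the other lists run from -0.45 to 0.02 in the NWD1 panel and from -1.25 to 0.13 in the Ain76A panel. There the lowest is the interferon gamma induced list, with 3 genes filled, and Gzma is filled among T cells.

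The cell types that carry class II were checked through markers. The B cell marker Cd79a, the dendritic cell marker Flt3 and the innate lymphoid marker Il23r were blank on every array of all 12 groups. The B cell marker Ms4a1 was measured on 3 of 4 Ain76A, 4 of 4 NWD1 and 2 of 3 NWD2 villus arrays, with means of 6.64, 7.03 and 7.01. The macrophage marker C1qa was blank on all villus arrays of the 3 diets. The macrophage markers Csf1r and Adgre1 were measured on all of them, and their group means ran in opposite directions between NWD1 and NWD2. Csf1r averaged 8.18 ± 0.45 (SD, n = 4) on Ain76A, 7.69 ± 0.38 (SD, n = 4) on NWD1 and 7.95 ± 0.27 (SD, n = 3) on NWD2. Adgre1 averaged 7.30 ± 0.63 (SD, n = 4), 7.44 ± 0.27 (SD, n = 4) and 7.11 ± 0.22 (SD, n = 3). The dendritic marker Itgax averaged 7.60 ± 0.32 (SD, n = 3) on NWD2 and was measured on 3 of 4 NWD1 arrays, at 7.46 to 8.0.

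Summed over each list on the linear scale, with blanks as 0, macrophage markers (10 on the table) ran from 1729 to 1987 on NWD2, from 2394 to 3410 on NWD1 and from 1365 to 2765 on Ain76A villus arrays. Plasma cell markers (3) ran from 2345 to 2736, from 3490 to 4903 and from 2470 to 5724. T cell markers (10) ran from 7348 to 8829, from 7825 to 22967 and from 19937 to 36013. B cell markers (4) ran from 106 to 157, from 145 to 549 and from 106 to 652, and dendritic cell markers (3) from 162 to 248, from 0 to 255 and from 304 to 377. Macrophage and plasma cell sums were therefore lower on NWD2 than on NWD1 without overlap, and T cell and dendritic cell sums were lower than on Ain76A without overlap. The dendritic cell sum held Itgax alone on NWD2, and on Ain76A also Zbtb46, which was measured on 1 of 4 arrays. Itgax itself overlapped, at 7.56 to 8.56 on Ain76A and 7.34 to 7.95 on NWD2. Of all single genes tested, 6.44% did not overlap between NWD2 and NWD1, and 21.9% between NWD2 and Ain76A. Of the defining macrophage markers measured in these villi, Adgre1 averaged lower on NWD2 than on NWD1, as the sum did, and Csf1r averaged higher.

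No marker of these lists was called between NWD2 and NWD1 in villi, and Gzma, a T cell protease, fell against Ain76A by 1.93 ± 0.48 (limma adjusted p = 0.0498). The part of these cells in the class II values was not tested. Enterocyte sums overlapped among the villus groups, from 504519 to 598523 on NWD2 and from 567317 to 589892 on NWD1. None of the 9 enterocyte markers tested was called (median -0.03).

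Villi carried more class II RNA than crypts in the 1-year mice on Ain76A and NWD1. On NWD1 all 6 members rose from crypt to villus without overlap (53.3% of all genes tested did not overlap), with a median of 2.05 beside -0.00 for all genes, while 19.8% of the 9159 genes were called higher and 41.7% in either direction. The largest differences were those of H2-Ab1 (2.38 ± 0.47, limma adjusted p = 7.85e-05), H2-Aa (2.31 ± 0.60, 0.00179) and Cd74 (2.29 ± 0.69, 0.00673). H2-DMa and Ciita rose by 1.12 ± 0.44 (0.0398) and 0.71 ± 0.29 (0.0475). Leaving out crypt array 1, 2 or 4 or villus array 3 or 4 ended the Ciita call (up to 0.135). Leaving out crypt array 1, 3 or 4 or villus array 1, 2 or 3 ended the H2-DMa call (up to 0.083).

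On Ain76A 5 of the 6 members rose, with a median of 1.44, where 25.8% of 8781 genes were called higher (52.5% in either direction). H2-Ab1 rose by 1.71 ± 0.47 (limma adjusted p = 0.00197) and Cd74 by 1.82 ± 0.69 (0.0245), and every member overlapped between crypts and villi. Leaving out crypt array 1, 2 or 4 or villus array 1 or 3 ended the calls of H2-Aa (up to 0.125) and H2-Eb1 (up to 0.14). That of Cd74 was lost without crypt array 2 or villus array 1 or 3 (up to 0.0977), and that of Ciita without crypt array 1 or villus array 1 (up to 0.0943), while H2-DMa was gained without villus array 4 (0.0463). Crypt and villus arrays of the same number deviated together on this diet, and with the number as a replicate block Ciita was lost (0.0541) and H2-DMa was called (0.00611).

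On NWD2 limma called none of 5 members between crypt and villus, none of them at an unadjusted p under 0.05, with a median of 0.36 beside 12.6% of 8828 genes called. With the array number as a replicate block, which paired the crypt and villus arrays on this diet too, the genes called rose from 1114 to 2436, and still no member was called. The Cd74 interval ran from -0.81 to 2.19 and so holds the size seen on Ain76A. In the MHC class I list, 6 of 12 genes on NWD1 rose from crypt to villus and 1 fell, beside 41.7% of all genes called in either direction, with H2-D1 up by 1.26 (limma adjusted p = 9.11e-05), and 7 of 12 on Ain76A rose and 3 fell, beside 52.5%. As a check of the compartments, 6 of 6 tested proliferation markers fell from crypt to villus on each of the 3 diets.

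**Figure D4:**
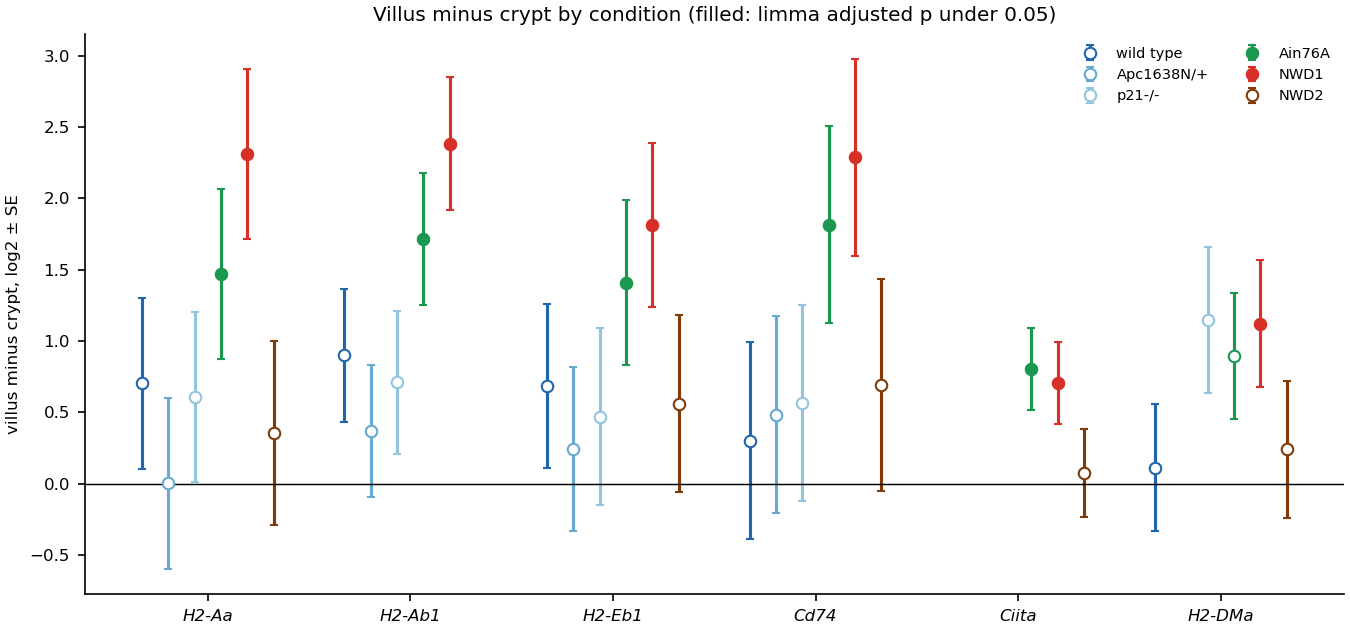
Villus minus crypt log2 difference ± SE of each member (horizontal axis) in the 6 conditions, shown by colour, with filled points for limma adjusted p under 0.05. Filled points are found on Ain76A (5 members) and NWD1 (6 members), where the medians are 1.44 and 2.05, and the NWD2 points, median 0.36, lie below them.

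At 3 months no member was called between the compartments. Limma called 0 of 5 members in wild type (46.2% of 7797 genes called), 0 of 4 in Apc1638N/+ (41.4% of 7609) and 0 of 5 in arrays labelled p21-/- (45.9% of 7151), with 0, 0 and 1 members at an unadjusted p under 0.05. The medians were 0.69, 0.31 and 0.61. Enterocyte markers summed to 480232 and 441503 on wild-type crypt arrays 2 and 4, within the 431187 to 508055 of wild-type villi, and to 198902 and 341063 on arrays 1 and 3. Without arrays 2 and 4, a setting added after the data were seen, H2-Ab1 rose by 1.55 (limma adjusted p = 0.0218). The test of the Ain76A difference against that of 3-month wild type, added after the levels were seen, called 0 of 5 members (none at an unadjusted p under 0.05) and 11.7% of 7582 genes, with 0.77 ± 0.84 for H2-Aa and 1.51 ± 0.97 for Cd74.

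In villi the 1-year Ain76A arrays stood above the 3-month wild-type arrays, a comparison in which age and arm of the study coincide. Limma called 3 of 5 members higher, where 6.62% of 8050 genes were called higher (16.4% in either direction). Cd74 read 12.26, 10.67, 11.20 and 11.99 at 3 months, below all 1-year arrays, and the difference was 2.48 ± 0.69 (limma adjusted p = 0.0111). H2-DMa read 8.42, 7.62, 8.63 and 9.43 at 3 months, also below all 1-year arrays, by 1.71 ± 0.44 (0.00707). With the mean of its probe sets, the H2-DMa difference was 0.87 and was not called (0.168). H2-Ab1 rose by 1.41 ± 0.47 (0.0324), and leaving out array 2 or 3 of wild-type villi, or array 1 or 3 of Ain76A villi, ended that call (p up to 0.133). H2-Aa, at 1.62 ± 0.60, missed the threshold (0.0551) and was gained without Ain76A array 2 (0.0396).

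T cell markers moved the other way: 9 of 9 tested fell. Dendritic cell sums were also lower without overlap, 690 to 1642 at 3 months and 304 to 377 at 1 year, and so were stromal sums, 570 to 1842 and 285 to 435. Cd8a, the co-receptor of cytotoxic T cells, fell by 3.03 ± 0.50 (limma adjusted p = 1.50e-04), and Itgae, an integrin of intraepithelial T cells, fell by 2.64 ± 0.45 (2.21e-04). Their summed level was 75897 to 143931 at 3 months and 19937 to 36013 at 1 year. The part of these cells in the members' values was not tested. In crypts limma called 0 of 6 members, 1 at an unadjusted p under 0.05, beside 10.9% of 8939 genes, with a median of 0.79.

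No member was called for genotype. Limma called 0 of 4 members for Apc1638N/+ in crypts (0.125% of 7986 genes called) and 0 of 5 in villi (0.0248% of 8069), none at an unadjusted p under 0.05. For arrays labelled p21-/- it called 0 of 6 in crypts (5.07% of 7442) and 0 of 5 in villi (0.0373% of 8036), with 1 and 0 members at an unadjusted p under 0.05. The one at an unadjusted p under 0.05 was Ciita, which differed by 0.74 ± 0.33 (limma adjusted p = 0.187), from 6.80, 6.68 and 7.31 with 1 blank in wild type to 7.93, 7.31 and 7.76 with 1 blank.

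The labels of these groups could not be checked by the targeted genes. Cdkn1a read 11.24 to 12.15 in crypts labelled p21-/- and 11.43 to 12.96 in wild type, and 12.70 to 13.38 and 12.38 to 12.98 in villi. It was therefore present at overlapping levels, and the sources used here do not say whether its probe set lies in the deleted part. Apc, of which Apc1638N/+ mice keep a normal allele, read 10.23 to 10.96 in Apc1638N/+ crypts and 10.04 to 10.91 in wild type.

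Arrays of a group differed together in these genes. Leaving Ciita aside, all 5 remaining members were highest on array 3 in Apc1638N/+ villi, Ain76A crypts and on array 2 in NWD2 villi, and lowest on array 2 in wild-type and Apc1638N/+ villi and on array 3 in NWD2 crypts. In Apc1638N/+ villi Cd74 read 11.75, 9.81, 13.94 and 10.96, a span wider than any diet difference of the group means. Ranked by mean level over the groups with at least 3 measured arrays, NWD1 villi came first and Ain76A villi second for these 5 genes. This left NWD2 villi out of the order for H2-Ab1 and Apc1638N/+ crypts out of that for H2-DMa. The gap between them was smaller than the SD of at least 1 of the groups, and the gap from Ain76A villi to the next group exceeded both SDs for each of the 5. NWD2 crypts came last for H2-Aa, H2-Ab1, H2-Eb1 and Cd74, and second to last, above crypts labelled p21-/-, for H2-DMa. Below the second place the neighbours in these orders differed by less than the larger of their SDs, except the last pair for H2-DMa.

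The genes most like the members were sought among 5158 others measured on all 47 arrays, by Pearson correlation with the mean of H2-Aa and Cd74 after subtracting each tissue's mean. They were Cyba (r = 0.66, Spearman's rho = 0.69), a subunit of the phagocyte oxidase, Gp1bb (0.63 and 0.55), Aplp1 (0.59 and 0.54), Gltp (0.59 and 0.57), Pdlim1 (0.56 and 0.53) and Jund (0.56 and 0.55). Without the 2 arrays farthest from the median, r was 0.71 for Cyba and 0.50 to 0.56 for the other genes. These are descriptions over arrays that share groups and normalization.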

How the data were processed

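Values were the authors' deposited log2 expression values of 45101 probe sets on 47 arrays, made with GCOS per the submitters' processing notes. Blank cells (55.2%), for which the sources used here give no reason, were kept blank, and 14814 to 23355 probe sets were measured per array. Trimmed means differed by up to 1.44 times, above a limit of 1.2, so the 8404 probe sets measured on every array were quantile normalized and the others interpolated. Probe sets above the array's median on at least 3 arrays (blanks counting as below) were kept, and the one with the highest mean, with blanks at the 1st percentile, represented a gene. These readings of the filter and of the probe set choice were settled after the blanks were seen.

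Limma 3.58.1 (R 4.3.3) fitted 12 group means with a trended prior variance, and Benjamini-Hochberg adjustment ran over all genes measured on at least 3 arrays per group, with a threshold of 0.05. Crypt and villus arrays of the same number were taken as paired where each correlation of their deviations from the group mean exceeded 0.1, which held on Ain76A (4 pairs, 0.138 to 0.289) and NWD2 (3 pairs, 0.283 to 0.489); this pairing comes from the data, not the labels. The script was tested on simulated data. The members and gene lists were chosen with earlier results of these data known. All members were named, with up to 4 called genes per list, defining markers and the 6 genes most like the members. The number of arrays limits the precision. Alternatives covered scaling, blanks, filters, probe sets, variance model, replicate block and each array left out, and 4 were added after the data were seen.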

Additional observations from a re-analysis of the deposited data

Results flagged for a closer look

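Among 56 groups of 4 arrays with a value on each, a single array stood far from the others in 2, and chance alone marks about 1 in 20 groups. H2-Aa on array 3 of Ain76A crypts was 13.28, with the next array at 12. Cd74 on array 2 of crypts labelled p21-/- was 11.22, with the next array at 10.54. Array 3 was also the highest Ain76A crypt array for H2-Ab1, H2-Eb1, Cd74 and H2-DMa. The cause was not tested.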

How the results depend on the processing

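When single arrays were left out, the median of the members moved by less than the replicate SD in each comparison. Its sign held in the NWD2 against NWD1 and NWD2 against Ain76A comparisons, and changed for at least 1 array left out in NWD1 against Ain76A in crypts, in all genotype comparisons, and between compartments in Apc1638N/+ and on NWD2, where no member was called. It moved by more than the replicate SD where only genes measured on every array were used, to -1.73 (NWD2 minus NWD1, crypts) and -3.51 (villi). In that setting H2-Aa and Cd74 are the only members. It also moved so without wild-type crypt arrays 2 and 4, to 0.63 for p21-/- minus wild type in crypts. No call of a single member reversed.

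Counts of called members moved more. NWD2 minus NWD1 in villi, with 2, gave 1 with the mean of probe sets, 0 without the variance trend, 0 with only the groups compared, 0 with a filter at the median of measured values, and 0 to 2 without single arrays. With the deposited scaling Cd74 was lost (-3.41, limma adjusted p = 0.0526) and H2-DMa gained (-2.42, 0.042). NWD2 minus Ain76A in villi, with 2, gave 1 with blanks at a floor, on genes measured everywhere, with the mean of probe sets and with the probe set of highest measured mean, 0 without the trend, at the measured median and over all probe sets, and 0 to 3 without single arrays. In crypts, only the groups compared gave 2 against NWD1 and 4 against Ain76A, both from 0, and single arrays left out gave 0 to 2 against Ain76A. Age in villi, with 3, gave 5 with deposited scaling or only the groups compared, 1 on genes measured everywhere, and 2 to 4 without single arrays. Villus minus crypt gave 1 in wild type without crypt arrays 2 and 4 and 1 for p21-/-, from 0 in each case: Ciita, lower in villi, with a floor (-0.99, limma adjusted p = 0.0295) or H2-DMa, higher, with only the groups compared (1.15, 0.039). On Ain76A, with 5, it gave 1 with a floor, 2 on genes measured everywhere and 1 to 6 without single arrays. On NWD1, with 6, it gave 2 on genes measured everywhere and 4 to 5 without single arrays. Only H2-Aa and Cd74 were measured on every array, so that setting could call at most 2 members. The cause of the other changes was not tested.

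Every pair of same-numbered crypt and villus arrays correlated above 0.1 on Ain76A and NWD2. The other conditions were mixed, with 0.07 to 0.40 for p21-/-, 0.04 to 0.57 for Apc1638N/+, -0.17 to 0.29 on NWD1 and -0.26 to 0.09 in wild type. Whether arrays of these conditions were paired is not known. Over all 23 pairs the correlation ran from -0.26 to 0.57, 15 exceeded 0.1, and 14 were best matches. With the number as a replicate block, called members became 2 for NWD2 minus Ain76A in crypts, 4 in villi, 3 for NWD2 minus NWD1 in villi and 3 for p21-/- between compartments. In diet comparisons this block also joined same-numbered arrays of different diets, which the labels do not pair. Over 38 same-numbered pairs from 2 groups of 1 tissue, the correlation ran from -0.46 to 0.59, and 18 exceeded 0.1. Between compartments on NWD2 the block changed no member's call. The block was not run for age.

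Counts of all called genes, with their range over alternatives, were 1 (0 to 51) for NWD2 minus NWD1, crypts, 786 (206 to 2496) for NWD2 minus Ain76A, crypts, 0 (0 to 36) for NWD1 minus Ain76A, crypts, 10 (0 to 602) for Apc1638N/+ minus wild type, crypts, 377 (7 to 743) for p21-/- minus wild type, crypts, 978 (51 to 2098) for age, crypts, 2 (0 to 4) for NWD2 minus NWD1, villi; 40 (6 to 590) for NWD2 minus Ain76A, villi, 5 (0 to 24) for NWD1 minus Ain76A, villi, 2 (0 to 16) for Apc1638N/+ minus wild type, villi, 3 (0 to 95) for p21-/- minus wild type, villi, 1321 (681 to 2249) for age, villi, 3606 (2397 to 6546) for villus minus crypt, wild type, 3152 (1615 to 5222) for villus minus crypt, Apc1638N/+; 3280 (2307 to 5400) for villus minus crypt, p21-/-, 4613 (3074 to 8329) for villus minus crypt, Ain76A, 3818 (2511 to 6936) for villus minus crypt, NWD1, 1114 (244 to 2436) for villus minus crypt, NWD2, 0 (0 to 3) for NWD2 minus NWD1, villi minus crypts, 50 (1 to 1560) for NWD2 minus Ain76A, villi minus crypts, 887 (255 to 1357) for villus minus crypt, age.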
